A study of Mus musculus with 15 samples.

Results

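The miRNAs that mark the vessel wall and the connective tissue cells of the liver were followed across 3 diets. The members were the miRNAs on the array whose names are miR-126, miR-143, miR-145a, miR-199a, miR-199b or miR-214, with either arm of the hairpin, and this rule found 10 of the 696 mouse miRNAs on the array. They were mmu-miR-126-3p, mmu-miR-126-5p, mmu-miR-143-3p, mmu-miR-145a-3p, mmu-miR-145a-5p, mmu-miR-199a-3p, mmu-miR-199a-5p, mmu-miR-199b-5p, mmu-miR-214-3p and mmu-miR-214-5p. All groups were male B6C57/J mice that started their diets at 1 year of age and stayed on them for life. The SD group (5 mice) ate AIN-93G food ad libitum, the CR group (5 mice) was held to a 40% caloric restriction on that same food, and the Met group (5 mice) ate it ad libitum with metformin, an antidiabetic drug, mixed in at 0.1% w/w. Total RNA of whole liver from each mouse was hybridized to 1 array. The study asked how metformin and calorie restriction alter the miRNAs of the liver.

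A miRNA is cut from a hairpin precursor by the enzyme Dicer, and either arm of the hairpin can give a mature miRNA. The seed near its 5′ end sets most of its pairing with target mRNAs. miR-126 lies in the gene Egfl7 and is known as the miRNA of endothelial cells, where it sustains VEGF signaling. miR-143 and miR-145a are made from 1 transcript and are known from smooth muscle and other contractile cells of the vessel wall. miR-199a and miR-214 are made from an antisense transcript and are known from fibroblasts and from hepatic stellate cells, the cells that lay down matrix in a fibrotic liver. In RNA of whole liver, fewer cells of a type and less miRNA per cell cannot be told apart.

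The mature sequences of 4 members are shown because the results turn on them and because they show how alike these 4 are. The sequence of miR-199b-5p is not printed, so they do not show whether an array could confuse it with miR-199a-5p. They come from RefSeq (GRCm38.p6), run 5′ to 3′, and have the seed, bases 2 to 8, in capitals.
miR-126-3p: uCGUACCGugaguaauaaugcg
miR-199a-3p: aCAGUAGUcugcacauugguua
miR-199a-5p: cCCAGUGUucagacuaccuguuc
miR-214-3p: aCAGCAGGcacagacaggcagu

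The 4 sequences have 4 distinct seeds. Among these 4, the seeds of miR-199a-3p and miR-214-3p are the closest, with the same base at 5 of 7 positions, and the 2 miRNAs start with the same 4 bases. miR-126-3p is listed in RefSeq as miR-126a-3p, on the + strand of chr2:26591402-26591423 within Egfl7. miR-199a has 2 loci with identical mature sequences, one within Dnm2 (3p arm at chr9:21496498-21496519, - strand) and one within Dnm3 and its antisense transcript Dnm3os (3p arm at chr1:162217883-162217904, + strand; 5p arm at chr1:162217844-162217866). miR-214-3p lies at chr1:162223438-162223459 on the + strand, within the same Dnm3 and Dnm3os annotation. The 3p arm of miR-199b, from a locus within Dnm1, has the same sequence as miR-199a-3p, so the value called miR-199a-3p counts both. Mir143 and Mir145a both lie in Carmn.

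Values are z-scores. The median signal of a spot was put on a natural log scale, the mean of the whole array was subtracted, and the result was divided by the SD of the array. Each member had 20 spots on 2 to 4 probes. No miRNA spot was saturated. The arrays of CR mice 2 and 3 detected 167 and 151 miRNAs against 170 to 205 on the 13 other arrays. Their log2 summed miRNA signal was the lowest, at 16.68 and 16.44 against 16.95 to 17.90. The low signal was not limited to them. CR mice 4 and 1, at 16.95 and 17.27, were also below every SD and Met array, of which the lowest was 17.31. Slide 1 carried all SD mice with Met mice 1, 2 and 3, and slide 2 carried all CR mice with Met mice 4 and 5. No slide held both SD and CR, so for these 2 groups slide and diet are separated only through the Met mice. Of the hepatocyte miRNAs, all 5 listed members on the array were tested and miR-122-5p was detected on all 15 arrays. So were 139 miRNAs in all, so detection alone does not identify the tissue, which was taken from the labels.

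Group differences were tested by limma over 178 miRNAs, each detected in every mouse of 1 or more groups. A miRNA was called changed at a p of 0.05 or less, an adjusted p of 0.3 or less and an absolute Z ratio of 1.5 or more, where the Z ratio is the difference between group means divided by the SD of such differences over all 696 miRNAs. Of the 10 members, 8 were tested. miR-145a-3p and miR-214-5p were detected on 0 of 15 arrays and were not tested. miR-126-3p, miR-145a-5p, miR-199a-3p and miR-199a-5p were detected on all 15 arrays. miR-126-5p and miR-143-3p were each detected in 5 SD, 3 CR and 5 Met mice. miR-199b-5p was detected in 4 SD, 3 CR and 5 Met mice and so was tested only through the Met group. miR-214-3p was detected in 3 SD, 5 CR and 5 Met mice and was tested through both of the groups in which it was always detected.

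In CR against SD, none of the 8 tested members was called (0 of 8), beside 17.4% of all tested miRNAs (31 of 178). The endothelial and stellate cell miRNAs did not move as a block. The means of 3 were higher and those of 5 lower in CR, with a median difference of -0.0519 beside -0.0161 over all tested miRNAs, and the members spread from -0.349 for miR-126-3p to 0.128 for miR-145a-5p. At an unadjusted p of 0.05 there were 4 of 8 members, beside 74 of 178 tested miRNAs. They were miR-126-5p and miR-199a-3p (lower in CR) and miR-145a-5p and miR-214-3p (higher in CR). With an adjusted p of 0.05 and no limit on the Z ratio, 1 member passed, miR-126-5p (lower), beside 30.9% of all tested miRNAs.

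In Met against SD, none of the 8 was called, beside 1.12% of all tested miRNAs. The differences were small. The means of 7 members were higher and that of 1 was lower in Met, from -0.0230 for miR-126-5p to 0.0743 for miR-126-3p, and each limma adjusted p was 0.930. None of the 8 passed an unadjusted p of 0.05, beside 12 of 178 tested miRNAs. With an adjusted p of 0.05 and no Z ratio limit the share was 0 of 8 beside 0.562%. The exact permutation test over the 5 and 5 mice called none either.

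In CR against Met, 1 of 8 was called, miR-126-3p, which was lower in CR, beside 20.8% of all tested miRNAs. The means of 2 members were higher and those of 6 lower in CR, with a median difference of -0.0666 beside -0.0292 over all tested miRNAs. With an adjusted p of 0.05 and no Z ratio limit, miR-126-5p and miR-199a-3p passed (2 of 8, both lower in CR), beside 34.3%. The share of members called is near or below the background in each of these comparisons. CR against SD and CR against Met share the CR mice, so their values are not independent of each other.

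**Figure D1:**
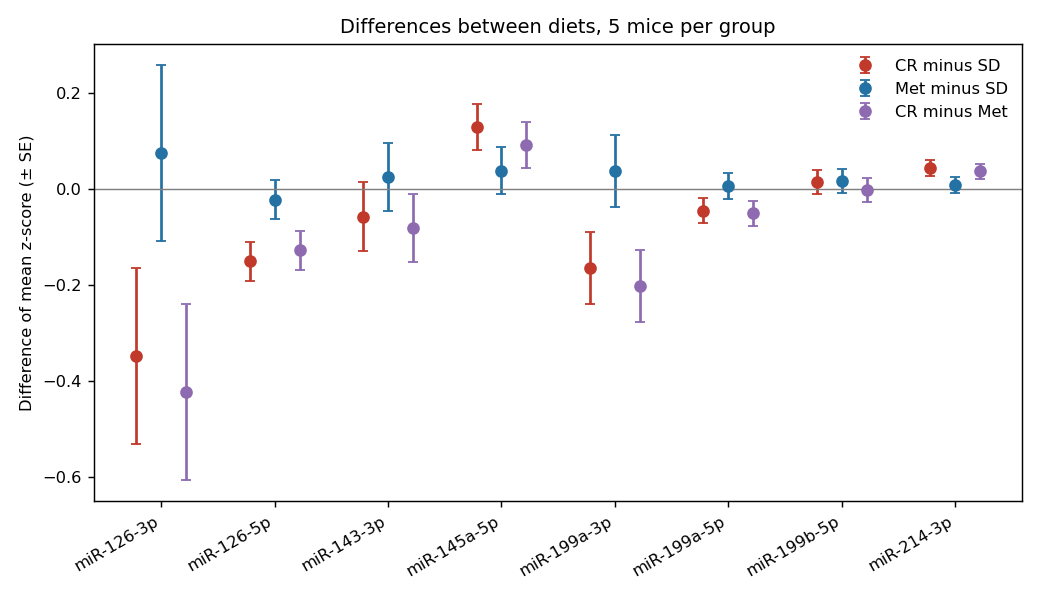
Difference of mean z-score for the 8 tested members in each comparison (points) with the standard error of the limma fit (bars), 5 mice per group. miR-126-3p has the lowest CR values, -0.349 against SD and -0.423 against Met, and the widest error, while miR-145a-5p and miR-214-3p lie above 0 in both CR comparisons.

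miR-126 is the endothelial member. The z-scores of miR-126-3p were 1.82, 1.90, 2.05, 1.81 and 2.12 in the SD mice, 2.08, 1.03, 1.102, 1.65 and 2.09 in the CR mice and 2.01, 1.87, 2.01, 2.09 and 2.09 in the Met mice. CR mice 1 and 5 were within the SD range, and CR mice 2, 3 and 4 were below every SD and every Met mouse. The group means were 1.94 ± 0.139 (SD of the z-scores, n = 5) for SD, 1.59 ± 0.513 for CR and 2.01 ± 0.0906 for Met. The order was Met, SD, CR, and Met and SD did not differ beyond their spread. The difference of CR from Met was -0.423 ± 0.183 (SE), at a Z ratio of -2.72 (adjusted p = 0.0852 by limma), and the exact permutation test, two-sided, gave p = 0.135. Against SD it was -0.349 ± 0.183, at a Z ratio of -2.10 (adjusted p = 0.156 by limma).

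The difference of miR-126-3p was smaller without the CR arrays of lowest summed signal. Without CR mice 2 and 3, an alternative chosen after seeing the data, CR less Met was -0.0718 with an adjusted p of 0.698 in limma, and CR less SD was 0.00243, with the sign turned. Leaving out CR mouse 2 or 3 alone, or Met mouse 1, 3, 4 or 5 alone, also ended the call, at Z ratios of -2.13 and -2.36 for CR mouse 2 and 3 and from -2.79 to -2.50 for the Met mice, beside -2.72 with all mice. The limma adjusted p ran from 0.0189 to 0.237 over the mice left out in turn. With the slide as a block the Z ratio was -2.98 and the limma adjusted p 0.142, and on slide 2 alone (CR mice against Met mice 4 and 5) the adjusted p was 0.292. On the total gene signal, a scale with the background subtracted described below, CR less Met was -0.11 ± 0.16 (log2, SE, adjusted p = 0.564 by limma). CR less SD was -0.12 ± 0.16 there (adjusted p = 0.524 by limma). The median tested miRNA was higher in CR on that scale, by 0.246 against Met and 0.274 against SD.

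The other arm, miR-126-5p, had the lowest adjusted p of the members in CR against SD. Its z-scores were 0.0457, 0.0377, 0.0510, -0.0209 and 0.0769 in the SD mice, -0.0041, -0.207, -0.238, -0.0956 and -0.0226 in the CR mice and 0.0505, -0.0310, 0.0403, 0.0108 and 0.0047 in the Met mice. CR mice 2, 3, 4 and 5 were below every SD mouse, and CR mouse 1 overlapped the SD range. CR less SD was -0.151 ± 0.0401 (SE, adjusted p = 0.0154 by limma), but its Z ratio of -0.911 is inside the limit of 1.5. CR less Met was -0.128 ± 0.0401 (adjusted p = 0.0262 by limma). On the arrays of CR mice 2 and 3, 0 of its 20 spots were well above background and it was not detected. Without these mice CR less SD was -0.0789 (adjusted p = 0.114 by limma). The slide block gave -0.139, with an adjusted p of 0.257 in limma. Leaving out single mice kept the limma adjusted p of CR against SD between 0.00512 and 0.0497.

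Both arms of miR-126 were read by pairs of probes, and both probes of each arm had their lowest group mean in CR. The arms had a Pearson r of 0.912 over the 15 arrays and of 0.934 for the deviations from group means. These points share their arrays, CR mice 2 and 3 included, and the value is a description.

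**Figure D2:**
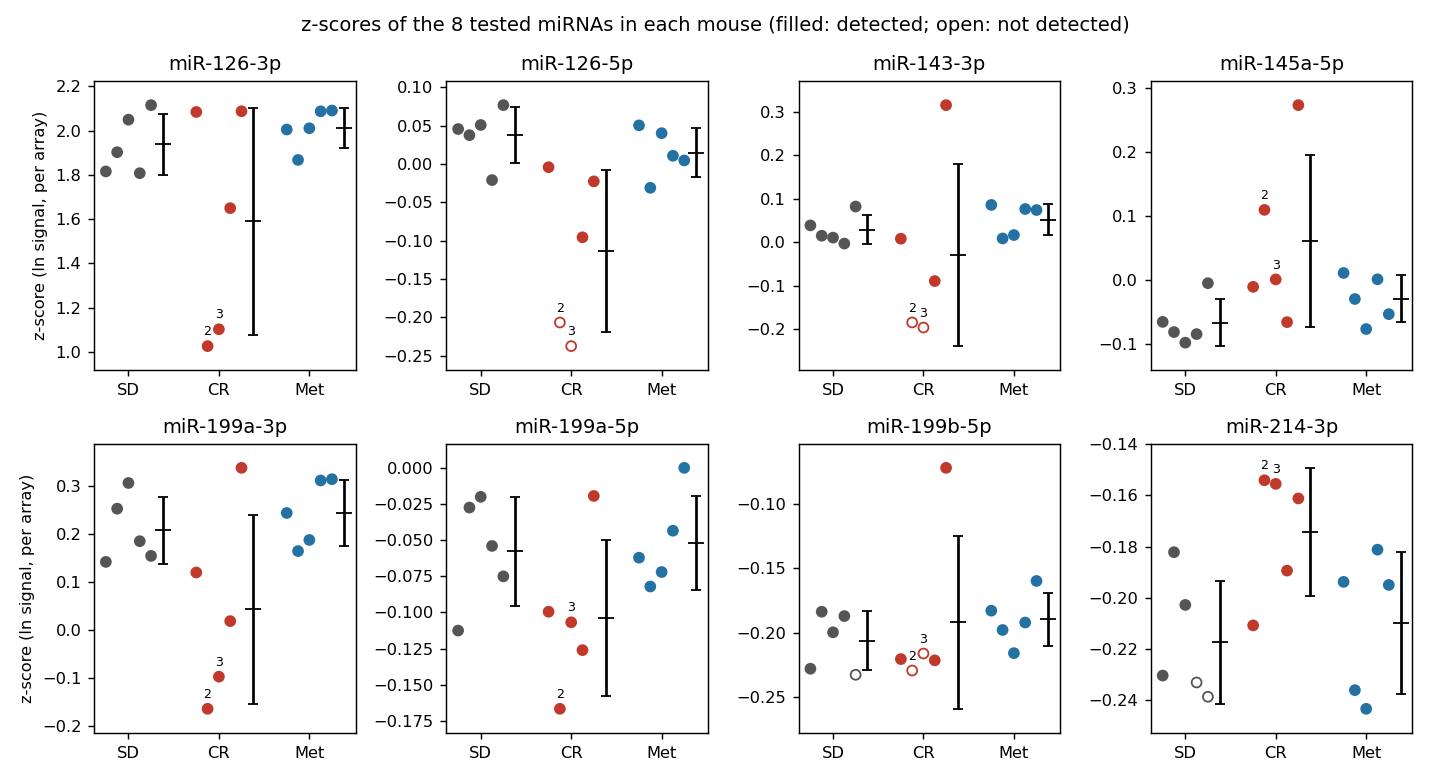
z-scores of the 8 tested members in each mouse (points, mice 1 to 5 from left to right, filled where the miRNA was detected), with the group mean ± SD beside them (n = 5) and CR mice 2 and 3 numbered. In miR-126-3p, miR-126-5p, miR-143-3p and miR-199a-3p these 2 CR mice are the lowest of all 15, and in miR-214-3p they are the highest.

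miR-143 and miR-145a are the smooth muscle members and share the Carmn transcript. The z-scores of miR-143-3p were 0.0385, 0.0148, 0.0104, -0.0033 and 0.0819 in the SD mice, 0.0079, -0.185, -0.196, -0.0895 and 0.315 in the CR mice and 0.0856, 0.0085, 0.0163, 0.0762 and 0.0738 in the Met mice. CR held both the lowest values of all arrays (mice 2 and 3, where miR-143-3p was not detected) and the highest (mouse 5). CR less SD was -0.0580 ± 0.0711 (SE, adjusted p = 0.559 by limma), and without CR mice 2 and 3 the sign turned to 0.0494. The SD of miR-143-3p was 0.210 in CR beside 0.0335 in SD and 0.0366 in Met.

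The z-scores of miR-145a-5p were -0.0661, -0.0820, -0.0986, -0.0852 and -0.0056 in the SD mice, -0.0113, 0.109, 0.0003, -0.0665 and 0.273 in the CR mice and 0.0104, -0.0303, -0.0773, 0.0005 and -0.0540 in the Met mice. CR mice 2, 3 and 5 were above every SD mouse, and the other CR mice overlapped them. The means were -0.0675 ± 0.0365 (SD, n = 5) in SD, 0.0609 ± 0.135 in CR and -0.0301 ± 0.0367 in Met. The CR mean was above the SD mean by 0.128 ± 0.0487 (SE), at a Z ratio of 0.772 (adjusted p = 0.0541 by limma). The direction was the same under all 34 alternatives, with a Z ratio from 0.243 to 2.76 and a limma adjusted p from 0.0104 to 0.637. Many of these alternatives could not turn the sign. Those that changed only the test, the threshold or a Met mouse kept the Z ratio at 0.772 by construction. Against Met, the CR mean was higher by 0.0910, and without CR mice 2, 3 and 5 this turned to a Z ratio of -0.0887.

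A scale with the background subtracted shows the same pair per array. The scanner software's total gene signal, set to a common 75th percentile of the miRNAs detected on all arrays, was 31.8, 31.6, 23.9, 32.4 and 34.7 for miR-145a-5p in the SD mice and 39.3, 77.4, 67.1, 40.3 and 83.1 in the CR mice. On this scale the CR mice all lay above the SD mice, 1.91-fold on average (log2 0.93 ± 0.23 SE, adjusted p = 0.0104 by limma). Before the signal was set to a common 75th percentile, the groups overlapped. It was then 28.68 to 40.71 in the SD mice and 40.45, 43.57, 30.16, 28.03 and 87.64 in the CR mice. Only CR mice 2 and 5 were then above every SD mouse, and CR mouse 4 was below them all. On the scaled signal 3 of 8 members were called in CR against SD, beside 32% of all tested miRNAs. These were miR-145a-5p and miR-214-3p (higher) and miR-126-5p (lower). The median tested miRNA was also higher in CR on this scale, by 0.27 on the log2 scale. For miR-143-3p the same signal was 44.5, 45.6, 35.8, 47.4 and 43.9 in the SD mice, 41.0, 35.2 and 90.7 in CR mice 1, 4 and 5, and at the software's minimum in CR mice 2 and 3. The 2 miRNAs of the Carmn transcript were thus apart in CR mice 2 and 3, where miR-145a-5p was detected and miR-143-3p was not, and together in CR mouse 5, which was the highest of all 15 mice for both. Their Pearson r was 0.407 over the 15 arrays and 0.713 for deviations from group means, a description over arrays that include these 3 mice.

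**Figure D3:**
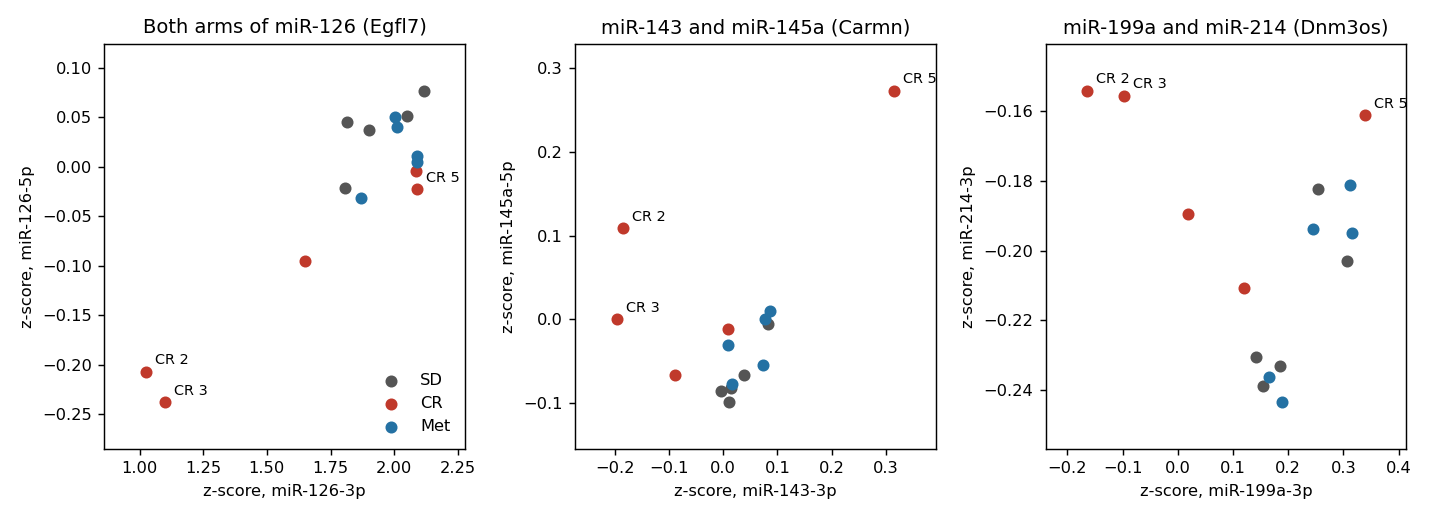
z-scores of pairs of members that share 1 hairpin or 1 host transcript, each point 1 mouse, colored by diet, with single CR mice named. The value of miR-199a-3p also counts copies from the loci within Dnm2 and Dnm1, so it is not that of the Dnm3os transcript alone. The arms of miR-126 move along 1 line, while CR mice 2 and 3 lie at the low end of miR-143-3p and miR-199a-3p and not at the low end of their partners miR-145a-5p and miR-214-3p.

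Among the stellate cell and fibroblast members, miR-199a-3p had the largest z-score differences in CR. Its z-scores were 0.142, 0.254, 0.307, 0.186 and 0.155 in the SD mice, 0.120, -0.164, -0.0971, 0.0188 and 0.339 in the CR mice and 0.245, 0.165, 0.188, 0.312 and 0.315 in the Met mice. CR mice 1 to 4 were below every SD and every Met mouse, and CR mouse 5 was above them all. Against SD the CR mean differed by -0.165 ± 0.0751 (SE), at a Z ratio of -0.995 (adjusted p = 0.105 by limma). Against Met it differed by -0.202 ± 0.0751, at a Z ratio of -1.30 (adjusted p = 0.0489 by limma). With the slide as a block it was called in both CR comparisons, at Z ratios of -1.56 against SD and -1.61 against Met, with limma adjusted p of 0.257 and 0.0812, beside 9.55% and 19.1% of all tested miRNAs. Without CR mice 2 and 3 the differences were -0.0495 against SD and -0.0857 against Met. Without CR mouse 5 it was called against Met, at a Z ratio of -1.53 (adjusted p = 0.00445 by limma), and at -1.27 against SD it was not. Without CR mice 2, 3 and 5, also chosen after seeing the data, it was called against Met at a Z ratio of -1.77 (adjusted p = 0.114 by limma), and against SD the Z ratio was -1.18. On the arrays of CR mice 2 and 3, 1 and 2 of its 20 spots were well above background, beside 20 of 20 on each other array.

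Its partner arm miR-199a-5p had z-scores of -0.113, -0.0276, -0.0202, -0.0541 and -0.0751 in the SD mice, -0.0995, -0.167, -0.107, -0.126 and -0.0196 in the CR mice and -0.0622, -0.0821, -0.0721, -0.0436 and -0.0002 in the Met mice. The groups overlapped. CR less SD was -0.0458 ± 0.0265 (SE, adjusted p = 0.190 by limma), and CR less Met was -0.0516 ± 0.0265 (adjusted p = 0.142 by limma). Its probes were unequal, with one at a mean z-score of 0.0899 and the other at -0.206 in SD, and the difference in CR against SD came from the brighter one (0.0070 in CR) more than from the dimmer one (-0.214). The arms of miR-199a had a Pearson r of 0.909 over the 15 arrays.

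miR-199b-5p was dim in every group, with means of -0.206 in SD, -0.192 in CR and -0.190 in Met. The difference of CR from SD was 0.0144 ± 0.0248 (SE, adjusted p = 0.684 by limma). CR mouse 5, at -0.0719, was far above the other CR mice, which lay between -0.229 and -0.216, and without that mouse the Z ratio of CR against SD turned to -0.0828.

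miR-214-3p went the other way from miR-199a-3p. Its z-scores were -0.230, -0.182, -0.203, -0.233 and -0.239 in the SD mice, -0.211, -0.154, -0.156, -0.189 and -0.161 in the CR mice and -0.194, -0.236, -0.243, -0.181 and -0.195 in the Met mice. CR mice 2, 3 and 5 were above every SD and every Met mouse, and the other CR mice overlapped them. The CR mean was above that of SD by 0.0432 ± 0.0160 (SE), at a Z ratio of 0.260 (adjusted p = 0.0503 by limma). It was above that of Met by 0.0357 ± 0.0160 (adjusted p = 0.0933 by limma). With the slide as a block, CR less SD was 0.00686, with an adjusted p of 0.875 in limma. The member was dim, with 0 to 9 of its 20 spots well above background on any array.

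The background itself was higher in CR on the z-score scale, and this moves with the result for miR-214-3p. The 470 miRNAs detected on no array had a median CR less SD difference of 0.0284, and 98.5% of them were higher in CR. The members never detected were among them. miR-145a-3p had a CR less SD difference of 0.0386 and miR-214-5p of 0.0339, beside 0.0432 for miR-214-3p. The part of the background in the difference of miR-214-3p was not tested. On the scale with the background subtracted, its signal was 9.73, 13.0 and 8.23 in SD mice 1, 2 and 3, at the software's minimum in SD mice 4 and 5, and 9.28, 16.4, 19.2, 15.2 and 13.8 in the CR mice. On that scale 4 of the 5 CR mice were above every SD mouse. Before the signal was set to a common 75th percentile, it was 10.6, 11.8 and 10.6 in SD mice 1, 2 and 3. In the CR mice it was then 9.5, 9.2, 8.6, 10.6 and 14.6, so only CR mouse 5 was above every SD mouse.

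CR mice 2 and 3 were the lowest of all 15 mice in 4 of the 8 tested members (miR-126-3p, miR-126-5p, miR-143-3p and miR-199a-3p) and the highest in 1 (miR-214-3p). The mean of these 2 mice less that of the other CR mice was -0.877 in z-score for miR-126-3p, -0.182 for miR-126-5p, -0.268 for miR-143-3p and -0.290 for miR-199a-3p. It was -0.0104 for miR-145a-5p and 0.0324 for miR-214-3p. These are descriptions of arrays singled out after their signals were seen.

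The calls in CR against SD differed between scales. Divided by the 75th percentile of the probes detected on all arrays, 5 of 8 members were called and all were higher in CR (miR-143-3p, miR-145a-5p, miR-199a-5p, miR-199b-5p and miR-214-3p), beside 67.4% of all tested miRNAs. On that scale, however, the median of all tested miRNAs was also higher, by 0.37 on the log2 scale, and 110 of 120 calls were higher in CR, beside 5 of 31 on the z-score scale. Divided by the 75th percentile of detected probes, miR-143-3p was highest in CR mice 2 and 3, at -1.23 and -1.11 (log2). It was not detected there. miR-199b-5p, also not detected there, was likewise highest in these mice, at -1.28 and -1.13. miR-145a-3p, detected on no array, stood at -1.33 and -1.15 in them. The part of these arrays in the calls was not tested. Relative to the median of all tested miRNAs, miR-145a-5p stood at 0.18 and miR-126-3p at -0.44 on the log2 scale. With quantile scaling the difference of miR-126-3p was 0.00745. Relative to the median of all tested miRNAs on the z-score, 75th percentile, quantile and total gene signal scales, miR-126-3p, miR-126-5p and miR-199a-3p were lower in CR than in SD and miR-145a-5p and miR-214-3p were higher. Both 75th percentile scales give the same value there by construction and count as 1. The standard errors at hand are those of the differences before the median was subtracted, so they do not measure the spread of these relative values. With quantile scaling the relative values were small, at -0.0255 for miR-126-3p (SE of the difference 0.107) and 0.0119 for miR-214-3p (SE 0.0174). On the 75th percentile scales they were -0.11 for miR-126-5p and 0.10 for miR-214-3p. There the SE of the difference was 0.110 and 0.150 with detected probes, but 0.0524 and 0.0194 with all probes. In CR against Met the share of all tested miRNAs called also moved with the scale, at 65.2% with the 75th percentile of detected probes, 41% with the total gene signal and 23.6% with normexp background correction.

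**Figure D4:**
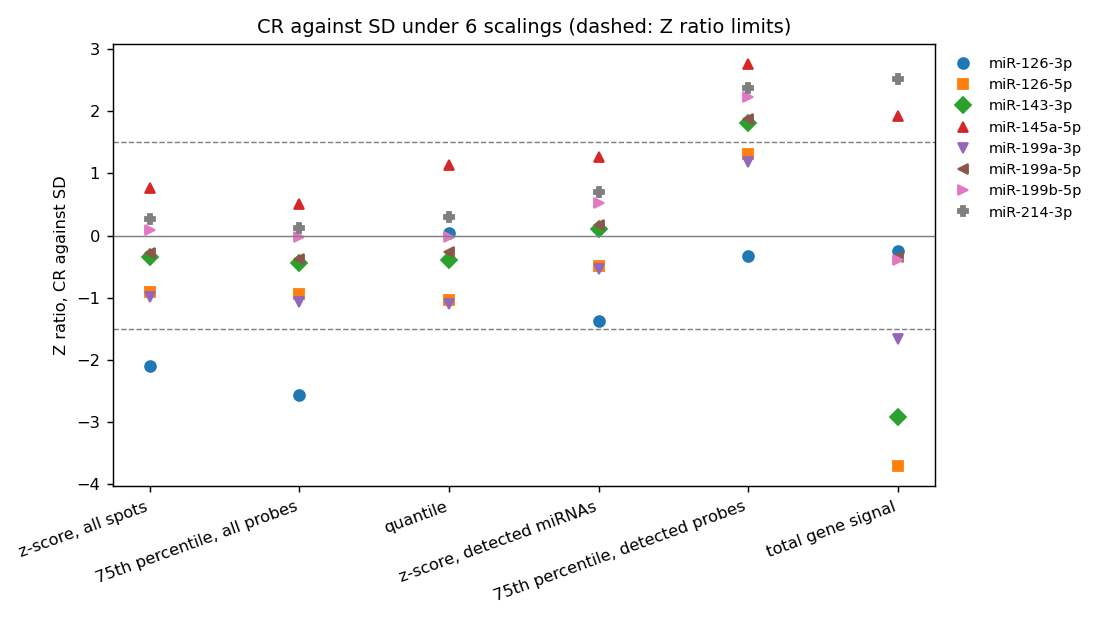
Z ratio of CR against SD for the 8 tested members under 6 scalings of the same arrays, with dashed lines at the limits of 1.5 and -1.5. miR-145a-5p and miR-214-3p are above 0 under each of the 6, whereas miR-126-5p runs from -3.71 (total gene signal, where 2 CR arrays are at the software's minimum) to 1.31 (75th percentile of detected probes).

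Among the other tested miRNAs, those with a pattern most like miR-126-3p over the 15 arrays were miR-30b-5p (Pearson r 0.977), miR-30c-5p (0.977) and miR-26b-5p (0.974). For miR-199a-3p they were miR-195a-5p (0.955), miR-15a-5p (0.920) and miR-16-5p (0.920), and for miR-199a-5p they were miR-199a-3p itself (0.909), miR-497-5p (0.879) and miR-223-3p (0.876). miR-145a-5p had no partner that close, with miR-99b-5p (0.759), miR-181a-5p (0.692) and miR-139-5p (0.643). The median r over all pairs of tested miRNAs was 0.031. All of these values share the arrays of CR mice 2 and 3. Between members, miR-126-3p had an r of 0.895 with miR-199a-3p, 0.807 with miR-143-3p, -0.128 with miR-145a-5p and -0.504 with miR-214-3p.

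Other miRNAs known from vessels gave no call against SD. Of 14 listed, 12 were tested. In CR against SD 4 were higher and 8 lower, with none called, from -0.211 for miR-27b-3p to 0.195 for miR-92a-3p. In Met against SD all 12 had higher means, with none called, and the largest difference was 0.232 for miR-130a-3p (adjusted p = 0.673 by limma). In CR against Met miR-130a-3p was called, lower in CR, with a difference of -0.279 in z-score (adjusted p = 0.0617 by limma), and without CR mice 2 and 3 it was not called. The mean z-score of the list lay between 0.591 and 0.738 in the SD mice, 0.454 and 0.781 in the CR mice and 0.698 and 0.774 in the Met mice.

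Of 11 other miRNAs known from fibroblasts and muscle, 4 were tested. Of these, miR-21a-5p, miR-29b-3p and miR-29c-3p were called lower in CR against SD and against Met, beside 17.4% and 20.8% of all tested miRNAs. miR-21a-5p, which many cell types express, had the lowest value, at -1.34 against SD (adjusted p = 0.0191 by limma), and miR-29a-3p, which restrains collagen synthesis, the highest, at 0.0474. The mean z-score of the 4 was 1.06 to 1.29 in CR mice 2 and 3 and 1.94 to 2.28 in the other CR mice. Without CR mice 2 and 3, miR-21a-5p stood at -0.564 and miR-29b-3p at -0.319 against SD and both were called, and miR-29c-3p was not. The striated muscle miRNAs miR-1a-3p, miR-133a-3p and miR-133b-3p were each detected on 1 array. Markers of other cell types moved in the same comparison. Of the 5 hepatocyte miRNAs, miR-148a-3p, miR-192-5p and miR-194-5p were called lower in CR against SD, down to -0.887 for miR-192-5p. This was 3 of 5, beside 17.4% of all tested miRNAs. miR-122-5p went the other way, with a CR less SD difference of 0.217 (adjusted p = 0.155 by limma), and was not called. The mean of the list lay between 2.57 and 2.82 in the SD mice. It lay between 1.77 and 2.67 in the CR mice and 2.74 and 2.84 in the Met mice. Within CR the hepatocyte mean was 1.77 to 1.87 in mice 2 and 3 and 2.39 to 2.67 in the others, and without those mice miR-148a-3p and miR-192-5p were called against SD and miR-194-5p was not. Of 6 leukocyte miRNAs 4 were tested and none was called, with list means from -0.0400 to 0.0722 in SD, -0.166 to 0.0243 in CR and -0.0744 to 0.175 in Met. The erythroid miR-451a, the 1 tested of 3 listed, was at -0.624 in CR against SD and was not called. Of 5 biliary miRNAs, miR-141-3p, miR-200c-3p and miR-429-3p were detected on no array, and miR-200b-3p, the 1 tested, was at 0.0442. The part of these cell types in the members' differences was not tested.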

How the data were processed

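Liver miRNAs of 15 mice were measured on 1-color Agilent arrays (release 15, Cy3). The authors deposited the scanner output, with the median signal and background of each spot as linear intensity, the total gene signal with background subtracted, and flags of 0 or 1, from Feature Extraction 11.5.1.1. The authors also deposited a table of scores, which are z-scores of the natural log signal of each array. These were recomputed from the scanner output with all spots, 715 control spots included, and differed by at most 0.0005. Outlier spots were left out, and spots, then probes, were averaged. The deposited intensity values carry no counts, so the number of arrays limits the precision.

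Groups came from the labels. limma 3.58.1 (R 4.3.3) fitted all 3 groups at once with moderated variances that follow the mean, and p-values were adjusted by Benjamini-Hochberg over 178 miRNAs. The limits follow the methods of the study, and the pairwise test named there was an alternative. All fits ran on log-scale values. On simulated data the fit was tested before use. Alternatives covered scaling, background correction, filters, probe summary, test, threshold, replicate and slide blocks and leaving out each mouse. In the total gene signal alternative, values under a floor of 2.906 were set to it before log2. Python 3.11.15, numpy 2.4.6, pandas 2.3.3 and matplotlib 3.10.9 served for reading and plots. Named miRNAs are all members and, for each member detected on all arrays, the 3 most correlated miRNAs, plus the extremes of each other list. Other miRNAs of these lists that were called or rarely detected were named after their values were seen. Members and lists were chosen with earlier results of these data known. No label links the replicate numbers across diets. Sequences and loci came from RefSeq tables, which held 5 of the 10 members, of which 4 are printed.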

Additional observations from a re-analysis of the deposited data

Results flagged for a closer look

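In the CR group, the z-score of miR-199b-5p in mouse 5 was -0.0719, while the other 4 CR mice lay between -0.229 and -0.216. The gap to the nearest mouse was 0.916 of the group's range, above Dixon's critical value of 0.71 for 5 samples. Of 30 combinations of member and group that were examined this way this was the only one to pass, and about 1 in 20 would by chance. The same mouse had the highest z-score of all 15 for miR-143-3p and miR-145a-5p. The cause was not tested.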

How the results depend on the processing

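Of 820 values of a member under an alternative, 739 kept their direction and their side of the limits and 41 changed sign. With the direction kept, 18 lost a call and 22 gained one. A value that changed sign was counted only there, also where it gained a call, as miR-143-3p did with the 75th percentile of detected probes. Many of the 820 could not change sign, since only the test, the threshold or a mouse outside the comparison was changed. The 739 is therefore no measure of robustness. Met against SD had no called member under any alternative (0 of 8 throughout). The cause of a change was not tested, except that leaving mice out leaves fewer samples.

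In CR against SD, where no member was called, the 75th percentile of detected probes called 5, the total gene signal 3, and the 75th percentile of all probes (miR-126-3p), an adjusted p of 0.05 with no Z ratio limit (miR-126-5p) and the slide block (miR-199a-3p) 1 each. Leaving out each mouse in turn gave 0 to 1, with miR-126-3p called without CR mouse 1 or CR mouse 5. In CR against Met, where 1 was called (miR-126-3p), normexp called 2, miR-126-3p and miR-199a-3p, beside 42 of 178 tested miRNAs. Other settings called members but lost miR-126-3p. The 75th percentile of detected probes called 5 (beside 116 of 178), all higher in CR. These were miR-143-3p, miR-145a-5p, miR-199a-5p, miR-199b-5p and miR-214-3p. The total gene signal called 3 (73 of 178), miR-145a-5p (higher), miR-126-5p and miR-199a-3p (both lower). An adjusted p of 0.05 with no Z ratio limit called 2 (61 of 178), miR-126-5p and miR-199a-3p. None was called (0) with quantile scaling, with z-scores over detected miRNAs, with the pairwise test of the methods, the exact permutation test, 2 groups in the fit, 1 slide only, or without CR mice 2 and 3, where the last was chosen after seeing the data. The slide block also gave 1, as did leaving out CR mice 2, 3 and 5, but this was miR-199a-3p in place of miR-126-3p. Leaving out each mouse in turn gave 0 to 2, with none called without CR mouse 2 or 3 or Met mouse 1, 3, 4 or 5, and 2 without CR mouse 5.

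These Z ratios changed sign. In CR against SD they were, for the 75th percentile of detected probes, 1.31 for miR-126-5p, 1.81 for miR-143-3p, 1.19 for miR-199a-3p and 1.87 for miR-199a-5p. With z-scores over detected miRNAs, miR-143-3p was at 0.11 and miR-199a-5p at 0.169. Without CR mice 2 and 3, miR-126-3p was at 0.0211 and miR-143-3p at 0.428. Quantile scaling put miR-126-3p at 0.0493. miR-199b-5p was at -0.0158 with the 75th percentile of all probes, -0.0215 with quantile scaling, -0.387 with the total gene signal, -0.0481 with the slide block, -0.0828 without CR mouse 5 (up to 0.163 when other mice were left out) and -0.125 without CR mice 2, 3 and 5, also chosen after seeing the data. In Met against SD, the total gene signal put miR-126-3p at -0.053 and miR-199a-5p at -0.186, and the 75th percentile of detected probes put miR-126-5p at 0.575. The slide block and slide 1 alone both put miR-199a-3p at -0.177, miR-199a-5p at -0.267 and miR-214-3p at -0.131, and miR-199a-5p was at -0.13 without SD mouse 1 and -0.112 without Met mouse 5 (up to 0.24 when other mice were left out). In CR against Met, the 75th percentile of detected probes put miR-126-5p at 1.26, miR-143-3p at 1.54, miR-199a-3p at 0.785, miR-199a-5p at 1.7 and miR-199b-5p at 2.03. With z-scores over detected miRNAs, miR-199a-5p was at 0.161 and miR-199b-5p at 0.474. Without CR mice 2 and 3, miR-143-3p was at 0.273 and miR-199b-5p at 0.195, and without CR mice 2, 3 and 5, miR-145a-5p was at -0.0887. miR-199b-5p, whose Z ratio was -0.0141, ran from -0.179 to 0.0543 when single mice were left out.

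The labels do not say whether the replicate numbers pair the mice, and the mice were treated as unpaired. The correlations of same-numbered mice ran from -0.562 to 0.714, which cannot settle whether they were paired. With the replicate block, 0 members were called in CR against SD, 0 in Met against SD and 1 in CR against Met (miR-126-3p), with limma. The signal over background limits miR-126-5p, miR-143-3p, miR-199b-5p and miR-214-3p, which were not detected on every array.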
